A study of Mus musculus with 10 samples.

Results

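The set described here holds the 10 genes of the NRF2 antioxidant response given by symbol (Nfe2l2, Keap1, Hmox1, Nqo1, Gclc, Gclm, Srxn1, Txnrd1, Gsr and Slc7a11), of 22552 genes listed in the RNA-seq tables. All 10 were found by their symbol, and each value below is the sum of the FPKM of a gene's listed transcripts. FPKM, fragments per kilobase of transcript scaled to library size, is a level per length, so levels of different genes can be set side by side. Levels of genes with near-identical copies in the genome are uncertain. The RNA-seq libraries are polyadenylated RNA of mouse embryonic fibroblasts (MEFs) in 4 groups with 2 libraries each: mock-transfected cells kept at 32 °C, cells transfected at 37 °C with siRNA against Cirbp (siCirbp), cells transfected at 37 °C with siRNA against Rbm3 (siRbm3), and mock-transfected cells at 37 °C. The controls of the siRNA groups received no siRNA, so an effect of the target cannot be told apart from an effect of siRNA as such. A further 2 samples are PAR-CLIP libraries, 1 each of MEFs that stably express FLAG-tagged Rbm3 or FLAG-tagged Cirbp, grown at 37 °C per the growth protocol and given 100 µM 4-thiouridine for 16 h. In PAR-CLIP, RNA that has taken up 4-thiouridine is crosslinked to the protein, and the pulled-down RNA is sequenced to map the bound sites. No strain, genotype, age or number of MEF lines is given in the sources used here, and the meaning of the numbers 1 and 2 on the libraries is not stated, so p-values measure only the spread between these libraries.

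Nfe2l2 encodes NRF2, a transcription factor that switches on genes against oxidants and reactive compounds by binding antioxidant response elements (AREs) with small MAF partners. In unstressed cells KEAP1, an adaptor of a CUL3 ubiquitin ligase, holds NRF2 and has it degraded, and oxidants that modify KEAP1 let NRF2 build up without any need for more of its mRNA. Its targets import cystine and make glutathione (Slc7a11, Gclc, Gclm), recycle glutathione and thioredoxin (Gsr, Txnrd1), repair peroxiredoxins (Srxn1), and break down heme (Hmox1) and quinones (Nqo1). Fibroblasts in culture use this system as a standing defence against oxidants of the medium. Cirbp and Rbm3 bind RNA and are best known as proteins that mild cold induces.

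Depth, read from the ratio of coverage to FPKM, was 24.8 to 27.8 M fragments per RNA-seq library. The siRNA groups were noisier than the mock groups, as the 2 libraries of a group differed by a median of 0.107 (absolute log2) for mock 32 °C, 0.261 for siCirbp, 0.313 for siRbm3 and 0.0879 for mock 37 °C. Cirbp stood at 10.8 and 6.07 FPKM in the siCirbp libraries, below the 15.9 and 17.1 FPKM of mock 37 °C. In the test described below this fall did not pass (log2 fold change -0.94, limma adjusted p = 0.116). Rbm3 stood at 5.54 and 7.55 FPKM in the siCirbp libraries, above every other library (log2 fold change 1.31 against mock 37 °C, limma adjusted p = 0.0588). The siCirbp libraries thus differ from mock 37 °C in Rbm3 as well. Rbm3 stood at 3.05 and 1.16 FPKM in the libraries labelled siRbm3, against 1.85 and 2.21 FPKM in mock 37 °C, so replicate 1 goes against its label, and every statement below on siRbm3 is about libraries with that label. Of 11 fibroblast markers 9 had a mean of at least 1 FPKM, with Col1a1 between 177 and 1113 FPKM, while Thy1 was listed at 0 and Lum averaged 0.0543 FPKM. The defining markers of epithelium (Epcam, Cdh1), endothelium (Pecam1, Cdh5) and liver (Alb) stayed at or under 0.359 FPKM in every library. In the epithelium list Krt19 was at 0.122 and 0 FPKM in mock 32 °C, 1.25 and 1.25 with siCirbp, 2.35 and 7.55 with siRbm3, and 1.34 and 1.70 in mock 37 °C, and the summed level of its 5 genes reached 7.68 FPKM in siRbm3; its part in the results was not tested.

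The members differed widely in level. Hmox1 was the highest in each of the 4 groups, at 159 ± 9.9 FPKM in mock 32 °C, 117 ± 35 in siCirbp, 158 ± 32 in siRbm3 and 124 ± 1.8 in mock 37 °C (SD, n = 2 libraries per group). Nqo1, the quinone reductase often used as a readout of NRF2 activity, was the lowest in all 4 groups and under 1 FPKM in every library. In mock 37 °C the order from high to low was Hmox1, Nfe2l2, Txnrd1, Srxn1, Gclm, Keap1, Gsr, Gclc, Slc7a11 and Nqo1, and no neighbours in this order overlapped. In mock 32 °C no neighbours overlapped either, and Gclc stood above Gsr and Keap1, the reverse of their order in mock 37 °C. In both siRNA groups Txnrd1 overlapped Nfe2l2, Gclm overlapped Srxn1 and Gsr overlapped Keap1, and in siCirbp Slc7a11 overlapped Nqo1, so those neighbours do not differ beyond their spread.

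**Figure D1:**
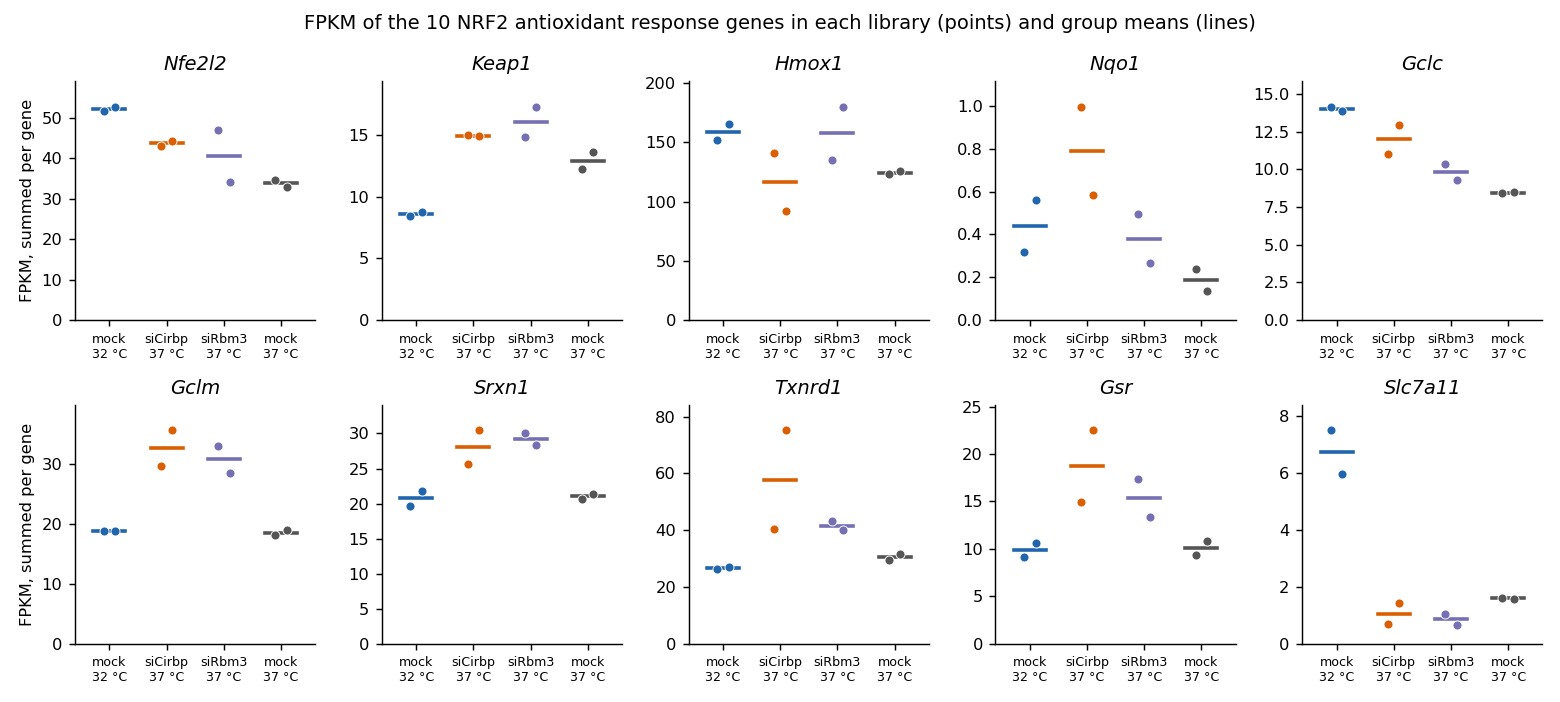
FPKM of each of the 10 genes (vertical axes, linear, from 0) in the 2 libraries of each group (points), with the group mean as a line; groups run from mock 32 °C through siCirbp and siRbm3 to mock 37 °C. Slc7a11, Gclc and Nfe2l2 are highest in mock 32 °C, while Gclm, Srxn1, Txnrd1 and Gsr are highest in the siRNA groups and in mock 32 °C overlap the mock 37 °C libraries or lie below them.

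The comparison of mock 32 °C with mock 37 °C asks which of these mRNAs differ in MEFs kept in mild cold. At 32 °C the cystine transporter gene Slc7a11 rose 4.21-fold in mean FPKM, and Gclc, the catalytic subunit of the rate-limiting enzyme of glutathione synthesis, and Nfe2l2 itself rose as well. Keap1, whose product restrains NRF2, fell. Differences were tested with limma on log2(FPKM + 1) over all 10901 genes with a mean of at least 1 FPKM, and a gene passed at a Benjamini-Hochberg adjusted p under 0.05; fold changes on this scale understate the change of low genes. Of the 10 members 9 could be tested and 4 passed, 3 higher and 1 lower, where 32.8% of all tested genes passed (13.0% higher and 19.8% lower). The libraries of the 2 groups did not overlap for 6 of the 9 (4 higher and 2 lower), where 84.9% of all tested genes did not overlap (41.0% higher and 43.8% lower). The median log2 fold change of the 9 members was 0.02, beside -0.02 over all tested genes. The members thus moved in both directions, and their median stood near that of all genes.

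Among the regulators, Nfe2l2 (mm9 chr2:75513576-75542698) had 51.7 and 52.8 FPKM in mock 32 °C, 43.0 and 44.3 with siCirbp, 47.1 and 34.2 with siRbm3, and 34.7 and 32.9 in mock 37 °C. Both cold libraries lay above the other 6, and siRbm3 replicate 2 lay within the mock 37 °C values. The rise at 32 °C had a log2 fold change of 0.61 (SE 0.17, limma adjusted p = 0.0313). Keap1 (mm9 chr9:21034174-21043776) had 8.42 and 8.74 FPKM in mock 32 °C, 15.0 and 14.9 with siCirbp, 14.9 and 17.3 with siRbm3, and 12.2 and 13.6 in mock 37 °C. Its cold libraries were the lowest of the 8, and all siRNA libraries were above mock 37 °C. The fall at 32 °C was -0.54 on the log2 scale (SE 0.14, limma adjusted p = 0.0271). Both calls, like that of Gclc, were lost without any 1 of the 4 mock libraries, with adjusted p from 0.126 to 0.174 for Nfe2l2, 0.109 to 0.191 for Keap1 and 0.0926 to 0.107 for Gclc.

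The fall of Keap1 lay in 1 of its 4 listed transcripts, all on the same locus. The 3151 nt transcript NM_001110307 had 4.94 and 4.70 FPKM in mock 32 °C, 11.7 and 11.8 with siCirbp, 10.3 and 13.3 with siRbm3, and 9.18 and 10.2 in mock 37 °C. The 4470 nt transcript NM_016679 had 3.48 and 4.04 FPKM in mock 32 °C, 3.04 and 3.13 with siCirbp, 4.61 and 4.00 with siRbm3, and 3.07 and 3.25 in mock 37 °C. Its share of all Keap1 FPKM was 41.4% and 46.2% in mock 32 °C, 20.2% and 20.9% with siCirbp, 31.0% and 23.1% with siRbm3, and 25.1% and 23.8% in mock 37 °C. The share was thus highest in both cold libraries, where the short transcript was low and the long one was not. This split was described after its values were seen, has no test and depends on how reads were assigned between overlapping transcripts.

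Slc7a11 (mm9 chr3:50168858-50247535) encodes xCT, the light chain of the antiporter that brings in cystine for glutathione in exchange for glutamate. It had 7.49 and 5.97 FPKM in mock 32 °C, 0.697 and 1.42 with siCirbp, 1.05 and 0.666 with siRbm3, and 1.61 and 1.59 in mock 37 °C. The cold libraries stood far above the other 6, and all 4 siRNA libraries lay below both mock 37 °C libraries. At 32 °C its log2 fold change was 1.56 (SE 0.22, limma adjusted p = 0.00402). This call was kept under all 14 alternatives tried, with adjusted p from 0.00114 to 0.0493. In siCirbp its log2 fold change was -0.36 (limma adjusted p = 0.368), and in siRbm3 it was -0.49 (0.384).

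Slc7a11 is a known target of NRF2 and also of ATF4, the transcription factor of the amino acid and integrated stress response, which binds C/EBP-ATF response elements (CAREs). Its promoter is shown because it is the member that moved most and because it sets these factors' letters apart. RefSeq promoters of GRCm38.p6, from 250 bases before the annotated start to 50 after it, were matched for 7 members with 9 promoters in all. Slc7a11 has the window GRCm38.p6 chr3:50443564-50443863 on the minus strand, in which capitals mark TGATGCAA, the core letters of a CARE, read on either strand:

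Slc7a11: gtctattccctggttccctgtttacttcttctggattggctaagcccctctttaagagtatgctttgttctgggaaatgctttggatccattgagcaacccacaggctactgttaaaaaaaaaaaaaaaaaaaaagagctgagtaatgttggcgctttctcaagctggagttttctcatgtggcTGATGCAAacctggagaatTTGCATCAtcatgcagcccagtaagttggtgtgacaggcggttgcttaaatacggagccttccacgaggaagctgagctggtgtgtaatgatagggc

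The letters stand at -66 in the sense and at -47 in the antisense direction, counted from the annotated start as 0. They occur in 0.895% of all 32851 promoters of this table and in 1 of the 9 promoters of the members. For the ARE only the spelling TGACNNNGC was searched, on both strands, and spellings with another base in place of its C were not. TGACNNNGC is not in this Slc7a11 window but is in 4 of the 9, beside 12.4% of all promoters. Those 4 belong to Nfe2l2 (at -240), Gclm (at -134), Srxn1 (at 28) and Txnrd1 (at -92, in 1 of its 3 promoters). The Keap1 and Nqo1 windows hold neither of these exact spellings. Hmox1, Gclc and Gsr have no entry. Only these exact letters were searched, so a site spelled otherwise or outside the windows would be missed. The letters describe a window of sequence and do not show that a factor binds there.

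The other glutathione genes split at 32 °C. Gclc (mm9 chr9:77602342-77642296) had 14.2 and 13.9 FPKM in mock 32 °C, 11.0 and 13.0 with siCirbp, 10.4 and 9.26 with siRbm3, and 8.39 and 8.47 in mock 37 °C. Its groups followed that order with no overlap, the cold highest and mock 37 °C lowest, and the rise at 32 °C was 0.67 on the log2 scale (SE 0.15, limma adjusted p = 0.0143). Gclm (mm9 chr3:121948510-121969566), the modifier subunit of the same enzyme, had 18.7 and 18.8 FPKM in mock 32 °C, 29.7 and 35.6 with siCirbp, 33.0 and 28.5 with siRbm3, and 18.1 and 18.9 in mock 37 °C. Here the mock groups overlapped and all 4 siRNA libraries lay above all 4 mock libraries, with a log2 fold change at 32 °C of 0.02 (SE 0.15, limma adjusted p = 0.944). Whether the letters in these promoters bear on the levels was not tested. The Gclm promoter (GRCm38.p6 chr3:122245307-122245606, plus strand) is given as well, with TGACNNNGC, read in the antisense direction, in capitals:

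Gclm: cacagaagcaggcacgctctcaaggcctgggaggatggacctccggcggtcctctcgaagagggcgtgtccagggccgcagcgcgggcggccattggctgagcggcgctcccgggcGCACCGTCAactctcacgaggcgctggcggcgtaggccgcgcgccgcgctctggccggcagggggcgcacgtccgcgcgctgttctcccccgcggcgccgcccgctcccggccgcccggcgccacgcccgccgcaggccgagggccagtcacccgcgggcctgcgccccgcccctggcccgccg

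Gsr (mm9 chr8:34763710-34808634), the reductase that recycles oxidised glutathione, had 9.19 and 10.6 FPKM in mock 32 °C, 15.0 and 22.5 with siCirbp, 17.4 and 13.4 with siRbm3, and 9.37 and 10.9 in mock 37 °C. The mock groups overlapped and every siRNA library was above them. Its log2 fold change at 32 °C was -0.03 (SE 0.22, limma adjusted p = 0.934).

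On the thioredoxin side, Txnrd1 (mm9 chr10:82296696-82360469), the cytosolic thioredoxin reductase, had 26.5 and 26.9 FPKM in mock 32 °C, 40.5 and 75.2 with siCirbp, 43.3 and 39.9 with siRbm3, and 29.3 and 31.7 in mock 37 °C. All siRNA libraries were above all mock libraries, siCirbp replicate 2 stood far above the rest, and the cold libraries were the lowest. The log2 fold change at 32 °C was -0.19 (SE 0.26, limma adjusted p = 0.609). Its 4 listed transcripts are not compared between groups, because the share of the main one, NM_015762, differed between the mock 37 °C libraries themselves, at 68.2% and 41.9%. Srxn1 (mm9 chr2:151931466-151937089), the sulfiredoxin that restores overoxidised peroxiredoxins, had 19.7 and 21.8 FPKM in mock 32 °C, 25.7 and 30.4 with siCirbp, 30.0 and 28.4 with siRbm3, and 20.7 and 21.4 in mock 37 °C. Again the mock groups overlapped below all 4 siRNA libraries, and at 32 °C the log2 fold change was -0.02 (SE 0.14, limma adjusted p = 0.940). The signs of the 32 °C values of Gclm, Srxn1 and Gsr, which lie near 0, turned under other scalings.

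Hmox1 (mm9 chr8:77617517-77624492), the inducible heme oxygenase, had 152 and 166 FPKM in mock 32 °C, 141 and 92.3 with siCirbp, 135 and 180 with siRbm3, and 123 and 126 in mock 37 °C. The cold libraries and those labelled siRbm3 lay above mock 37 °C, and siCirbp spread to both sides of it. No difference passed, with log2 fold changes of 0.35 at 32 °C (limma adjusted p = 0.279), -0.12 in siCirbp (0.798) and 0.33 in siRbm3 (0.518). Macrophages also express Hmox1, and the summed level of 7 macrophage markers was 30.5 to 36.0 FPKM in mock 32 °C, 14.2 to 15.0 with siCirbp, 13.1 to 25.0 with siRbm3 and 17.6 to 20.6 in mock 37 °C. Of these only Cd68 and Cd14 had a mean of at least 1 FPKM, while the defining marker Emr1 was listed at 0 in all 8 libraries, Ptprc stayed at or under 0.0317 FPKM and Csf1r at or under 0.510 FPKM.

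Nqo1 (mm9 chr8:109912125-109927105) had 0.318 and 0.560 FPKM in mock 32 °C, 0.997 and 0.582 with siCirbp, 0.495 and 0.267 with siRbm3, and 0.238 and 0.136 in mock 37 °C. Its coverage values are whole multiples of 1 step, within 0.02 of a whole number, which gives 12 and 20 reads in mock 32 °C, 36 and 22 with siCirbp, 18 and 9 with siRbm3, and 9 and 5 in mock 37 °C. All 6 other libraries were above both mock 37 °C libraries, but with so few reads the counting error alone is wide. Its mean of 0.449 FPKM kept it out of the test. In the fit without that filter its log2 fold change was 0.27 at 32 °C (limma adjusted p = 0.266), 0.58 in siCirbp (0.119) and 0.21 in siRbm3 (0.613). The pseudocount of 1 understates changes at such levels. The ratio of mean FPKM between siCirbp and mock 37 °C was 4.22, with an unadjusted limma p of 0.00772 that did not pass once adjusted over all genes.

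**Figure D2:**
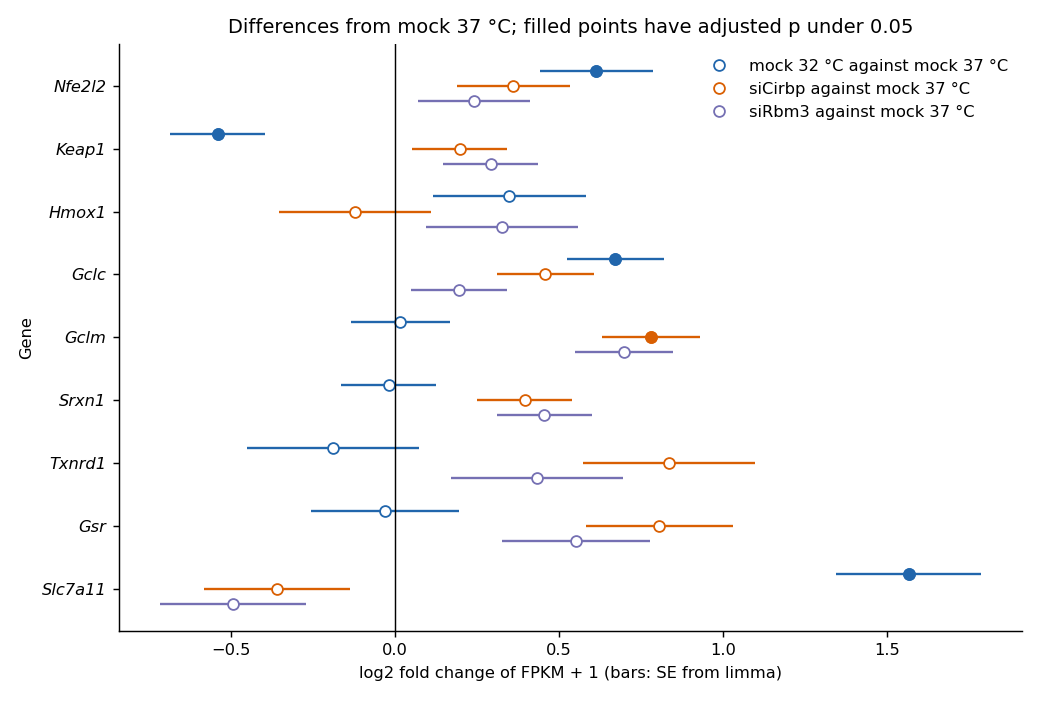
Log2 fold change of FPKM + 1 against mock 37 °C (horizontal axis, bars are the SE from limma) of the 9 tested members, for mock 32 °C, siCirbp and siRbm3; filled points passed at an adjusted p under 0.05. Slc7a11 at 1.56, Gclc at 0.67, Nfe2l2 at 0.61 and Keap1 at -0.54 are filled for mock 32 °C and only Gclm at 0.78 for siCirbp.

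The siRNA comparisons ask which of these mRNAs differ when Cirbp or Rbm3 is targeted at 37 °C. In siCirbp the glutathione synthesis subunit gene Gclm rose, with a log2 fold change of 0.78 (SE 0.15, limma adjusted p = 0.0435). It was the only 1 of the 9 tested members to pass, where 3.39% of all tested genes passed (2.77% higher and 0.624% lower). The libraries did not overlap for 8 of the 9 (7 higher and 1 lower), where 60.4% of all tested genes did not overlap (38.5% higher and 21.9% lower). The members that stood higher without passing included Txnrd1 at 0.84 (SE 0.26, limma adjusted p = 0.112), Gsr at 0.81 (SE 0.22, 0.0873), Gclc at 0.46 (SE 0.15, 0.117) and Srxn1 at 0.40 (SE 0.14, 0.154). Nfe2l2 at 0.36 (0.250) and Keap1 at 0.20 (0.446) were closer to mock 37 °C. The median of the 9 members was 0.40, beside 0.08 over all tested genes.

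The Gclm call in siCirbp was close to the threshold. It was lost without siCirbp replicate 2 or any 1 of the 4 mock libraries, with adjusted p from 0.101 to 0.373. It was lost as well with median centring, no filter, the highest transcript only and the length trend removed (0.0511 to 0.130), and in 10 of the 14 alternatives in all. Without siCirbp replicate 1 Txnrd1 and Gsr passed (limma adjusted p = 0.0229 and 0.0434), and Gsr also passed without siRbm3 replicate 1 (0.0484) or 2 (0.0481).

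In the libraries labelled siRbm3 no member passed. By limma 0 of the 9 members passed, where 0.0% of all tested genes passed, and at an unadjusted p under 0.05 there were 3 of the 9 members and 1451 of the 10901 genes. Gclm had a log2 fold change of 0.70 (SE 0.15, limma adjusted p = 0.350), Gsr 0.55 (SE 0.22, 0.371), Srxn1 0.45 (SE 0.14, 0.350) and Txnrd1 0.43 (SE 0.26, 0.470). The libraries did not overlap for 8 of the 9 (7 higher and 1 lower), where 50.5% of all tested genes did not overlap (37.2% higher and 13.3% lower). The 7 higher ones held Hmox1 and not Nfe2l2, while those in siCirbp held Nfe2l2 and not Hmox1. The median of the 9 members was 0.33, beside 0.12 over all tested genes. Median centring moves every siRbm3 value by -0.11, which leaves the direction of each member as given. These values share the mock 37 °C libraries with the siCirbp comparison, so their likeness to it is no separate evidence.

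Set against each other, siCirbp and siRbm3 gave no difference in a member. By limma 0 of 9 passed, where 0.0367% of all tested genes passed, and 0 of the 9 had an unadjusted p under 0.05. The lowest adjusted p was 0.383, for Hmox1 (log2 fold change -0.45, SE 0.23). Log2 fold changes for Gclm (0.08, SE 0.15), Srxn1 (-0.06, SE 0.14) and Keap1 (-0.09, SE 0.14) lay within 1 SE of 0, and those of Txnrd1 (0.40, SE 0.26) and Gsr (0.25, SE 0.22) had wider errors. A p that misses the threshold does not show that the siRNA groups are alike.

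Direct comparisons of the cold with the siRNA groups were added after the values were seen. They restate differences already visible in the values above. Against siCirbp 5 of 9 members passed, where 30.2% of all tested genes passed (8.56% higher and 21.6% lower). Slc7a11 was higher in mock 32 °C (log2 fold change 1.92, SE 0.22, limma adjusted p = 0.00135), and Txnrd1 (-1.02, SE 0.26, 0.0239), Gsr (-0.84, SE 0.22, 0.0282), Gclm (-0.76, SE 0.15, 0.00927) and Keap1 (-0.74, SE 0.14, 0.00911) were lower in mock 32 °C. Against siRbm3 5 of 9 passed as well, where 39.3% of all tested genes passed (13.0% higher and 26.2% lower). Slc7a11 (2.06, SE 0.22, limma adjusted p = 0.00115) and Gclc (0.48, SE 0.15, 0.0377) were higher in mock 32 °C, and Keap1 (-0.83, SE 0.14, 0.00493), Gclm (-0.68, SE 0.15, 0.0118) and Srxn1 (-0.47, SE 0.14, 0.0364) were lower. Among the members that did not pass were Nfe2l2 against siCirbp (0.25, limma adjusted p = 0.300) and siRbm3 (0.37, 0.121), Gclc (0.21, 0.307) and Srxn1 (-0.41, 0.0665) against siCirbp, and Txnrd1 (-0.62, 0.0954) and Gsr (-0.58, 0.0743) against siRbm3.

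Slc7a11 passed in both of these comparisons under every alternative tried. The other calls depended on single libraries. Gclm in both comparisons and Keap1 against siCirbp no longer passed when either mock 32 °C library was left out. Keap1 against siRbm3 no longer passed without mock 32 °C replicate 1. Txnrd1 and Gsr against siCirbp and Srxn1 against siRbm3 no longer passed when any mock library was left out. Gsr against siCirbp also no longer passed without siCirbp replicate 2 or without the filter, and Srxn1 against siRbm3 without siRbm3 replicate 1. Median centring moves the values by 0.12 against siCirbp and 0.14 against siRbm3, and with it Gsr against siCirbp and Srxn1 against siRbm3 no longer passed, both also not with the length trend removed. Gclc against siRbm3 no longer passed without siRbm3 replicate 2 or any mock library (limma adjusted p from 0.0753 to 0.170). The number of members that passed was 1 to 7 in either comparison when 1 library was left out.

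Beyond the 10 members, 84 genes in 8 lists cover the rest of the pathway, and 74 of them could be tested. At 32 °C 17 of the 74 rose and 8 fell, beside the 13.0% and 19.8% of all tested genes given above. With any 1 of the mock libraries left out that count of 25 became 2 (mock 32 °C replicate 1), 0 (mock 32 °C replicate 2), 1 (mock 37 °C replicate 1) or 1 (mock 37 °C replicate 2). Gss kept its call without 3 of the 4 and lost it without mock 32 °C replicate 2 (limma adjusted p = 0.0542), Prdx3 kept its call only without mock 32 °C replicate 1, and the others lost theirs without each of the 4. In siCirbp 1 of the 74 rose and none fell, where 2.77% of all tested genes rose and 0.624% fell. In siRbm3 none passed, where 0.0% of all tested genes passed. At an unadjusted limma p under 0.05 there were 9 of the 74 in siRbm3, beside 1451 of all 10901 genes.

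Of 18 tested genes of glutathione synthesis, use and export 4 rose at 32 °C and none fell, with a list median of 0.39; of all tested genes 13.0% rose and 19.8% fell. Glutathione synthetase Gss, which completes glutathione after the step made by Gclc and Gclm, had 38.3 and 41.6 FPKM in mock 32 °C, 27.3 and 28.4 with siCirbp, 27.8 and 29.2 with siRbm3, and 19.0 and 20.7 in mock 37 °C (log2 fold change 0.97 at 32 °C, SE 0.13, limma adjusted p = 0.00352). Both mock 37 °C values were the lowest of the 8. The glutaredoxin gene Glrx rose by 1.50, the omega-class transferase Gsto1 by 0.78 and the mitochondrial glutaredoxin Glrx2 by 0.54. The value of Glrx2 turned to -0.23 with the highest transcript only, and the Glrx call was lost under 9 of 14 alternatives. Of 11 thioredoxins and peroxiredoxins 3 rose and 1 fell at 32 °C: the mitochondrial Prdx3 (0.83) and Txn2 (0.82) and the cytosolic Prdx1 (0.83) rose, and mitochondrial thioredoxin reductase Txnrd2 fell (-0.72). Prdx1 has near-identical copies in the genome and is uncertain, and the Txnrd2 call was lost under 7 of 14 alternatives.

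Thioredoxin Txn1, the substrate of Txnrd1, was the list gene that rose in siCirbp (0.79, SE 0.14, limma adjusted p = 0.0364). It had 106 and 106 FPKM in mock 32 °C, 167 and 185 with siCirbp, 130 and 131 with siRbm3, and 97.4 and 105 in mock 37 °C. As for Gclm and Txnrd1, all siRNA libraries were above all mock libraries. The gene has near-identical copies, and the call was lost under 8 of 14 alternatives, among them leaving out siCirbp replicate 2 or any mock library (adjusted p from 0.0880 to 0.346).

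Of 8 genes of the supply of NADPH, which Gsr and Txnrd1 consume, 4 fell and 1 rose at 32 °C. Of all tested genes 19.8% fell and 13.0% rose. The pentose phosphate enzyme Pgd had 39.8 and 46.4 FPKM in mock 32 °C, 126 and 105 with siCirbp, 108 and 113 with siRbm3, and 70.0 and 81.5 in mock 37 °C (log2 fold change -0.80 at 32 °C, SE 0.16, limma adjusted p = 0.0115). The siRNA libraries of Pgd were the highest of the 8 and the cold ones the lowest. Transketolase Tkt fell by 1.11, the mitochondrial transhydrogenase Nnt by 0.72 and malic enzyme Me1 by 0.57 on the log2 scale. The gene that rose, Pgls (0.82), is named after its value was seen. In siCirbp none of the 8 passed, where 3.39% of all tested genes passed. Pgd was at 0.60 there (limma adjusted p = 0.0837) and Nnt at 0.55 (0.0891).

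The other lists held few calls at 32 °C, where 13.0% of all tested genes rose and 19.8% fell. Of 10 regulators around NRF2, Rbx1, a subunit of the CUL3 ligase, rose (0.93), and the kinase gene Gsk3b (-0.67), whose product marks NRF2 for another ligase, and the small MAF gene Mafg (-0.62) fell. Of 8 genes of heme and iron, biliverdin reductase Blvra, which acts after Hmox1 (0.76), and ferrochelatase Fech (0.61) rose. Of 9 tested detoxification genes the epoxide hydrolase Ephx1 rose (1.46). Of 4 genes against superoxide and peroxide, mitochondrial Sod2 rose (0.72) and catalase Cat fell (-0.61). Calls of Gsk3b and Me1 were lost with the length trend removed, and those of Sod2 and Tkt without the filter.

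The list of ATF4 genes was set beside Slc7a11 because it shares that factor. At 32 °C 4 of its 6 genes rose and none fell, where 13.0% of all tested genes rose and 19.8% fell. The list median was 0.97, beside -0.02 over all tested genes. Atf4 had 358 and 358 FPKM in mock 32 °C, 133 and 174 with siCirbp, 158 and 235 with siRbm3, and 155 and 160 in mock 37 °C (log2 fold change 1.18 at 32 °C, SE 0.22, limma adjusted p = 0.00914). Asparagine synthetase Asns had 140 and 160 FPKM in mock 32 °C, 28.0 and 59.4 with siCirbp, 42.0 and 81.0 with siRbm3, and 34.1 and 37.1 in mock 37 °C (2.04, SE 0.39, limma adjusted p = 0.00953). For both genes, as for Slc7a11, the cold libraries were the highest of the 8. The stress transcription factor gene Ddit3 (1.00, SE 0.28, limma adjusted p = 0.0297) and Chac1, which degrades glutathione (0.94, SE 0.29, 0.0407), rose too. Both lost their calls without the filter, and Chac1 also with the length trend removed. Trib3 (0.89, 0.0820) and Sesn2 (0.14, 0.692) did not pass. All 6 ATF4 genes had siRbm3 replicate 2 above both mock 37 °C libraries, whereas Slc7a11 had it below them. In siRbm3 replicate 1 Ddit3, Chac1, Trib3 and Sesn2 lay below both mock 37 °C libraries, as Slc7a11 did. Asns lay above them there and Atf4 between them. In siCirbp 4 of the 6 lay below mock 37 °C without overlap and 0 above it, where 21.9% and 38.5% of all tested genes did. By limma 0 of the 6 passed in siCirbp. These lists were drawn up with earlier results on Atf4 and Asns known, so their direction is no separate evidence.

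**Figure D3:**
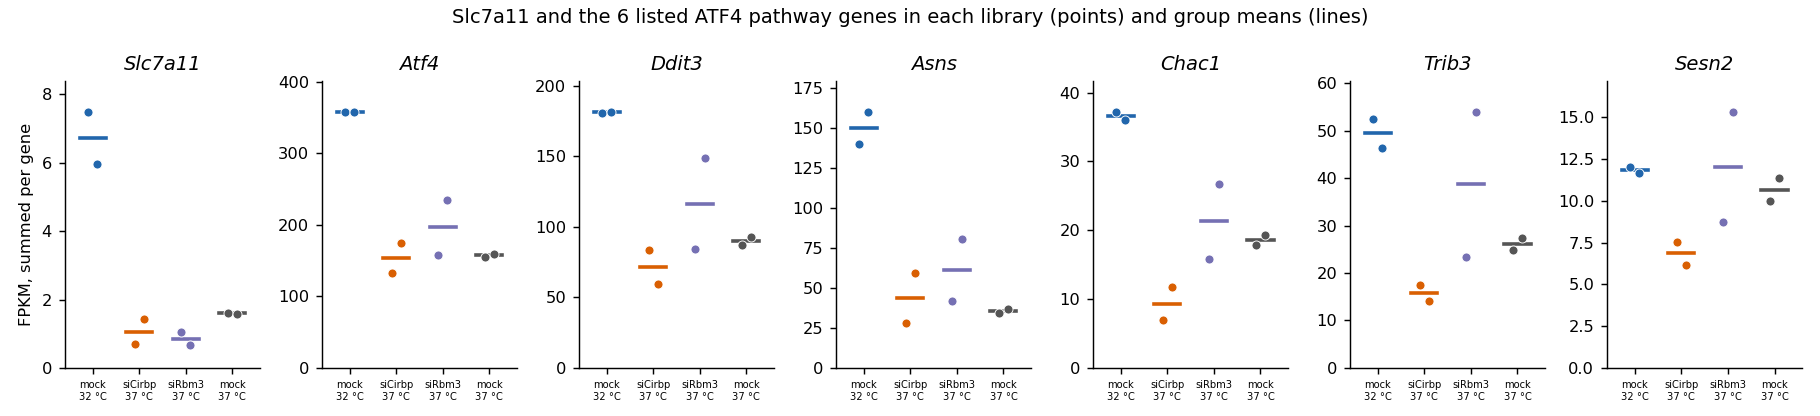
FPKM (vertical axes, linear, from 0) of Slc7a11 and the 6 listed ATF4 genes in the 2 libraries of each group (points) with the group mean (line); groups run from mock 32 °C through siCirbp and siRbm3 to mock 37 °C. The cold libraries are the highest for Slc7a11, Atf4, Ddit3, Asns and Chac1, whereas for Trib3 and Sesn2 siRbm3 replicate 2 is the highest.

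Gclc was the member with the largest change at 32 °C among those with a mean of at least 5 FPKM, and genes of like pattern were sought over the 8 libraries. By Pearson correlation of log2(FPKM + 1) among 8608 genes, the 5 most like it were Eif4a1 (0.987), Las1l (0.986), Mtbp (0.985), Bpnt1 (0.985) and Spata5 (0.985). Eif4a1, an RNA helicase of translation initiation, had 22.8 and 24.2 FPKM in mock 32 °C, 18.8 and 22.1 with siCirbp, 17.3 and 16.9 with siRbm3, and 14.3 and 14.7 in mock 37 °C. Only genes with a mean of at least 5 FPKM were ranked, which left out Slc7a11 and Nqo1. Of the other ranked members Nfe2l2 was nearest to Gclc, at rank 173 (0.915). Gsr (0.142), Gclm (0.0804), Txnrd1 (0.0734), Hmox1 (0.0346), Srxn1 (-0.0106) and Keap1 (-0.595) did not share its pattern. These correlations are a description of 8 libraries in 4 groups, which share their group differences.

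PAR-CLIP asks which of these transcripts carry sites of Rbm3 or Cirbp. The deposited lists hold 2118 Rbm3 sites and 1941 Cirbp sites, with 1 library per protein, so nothing was tested between them. An Rbm3 site lay in the locus of 1 member, Nfe2l2, where 8.79% of all genes tested in RNA-seq had one and 10.7% of those with a mean of at least 10 FPKM. A Cirbp site lay in the locus of 0 of the 10 members, where 8.32% of all tested genes had one and 11.3% of those with a mean of at least 10 FPKM. The Nfe2l2 site is 25 nt long (mm9 chr2:75514490-75514514, on the minus strand like the gene), 922 nt before the 3' end of the locus measured from its peak. Its deposited score of 419, whose scale is not stated in the sources used here, was exceeded by 28.0% of the Rbm3 sites. Whether it lies in an exon was not examined, as no mm9 annotation was used here. Both counts stayed the same with a stricter score, with loci extended by 1000 nt, with sites wholly inside the locus and with sites on the strand of the gene only.

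Among the 74 tested list genes 4 had an Rbm3 site and 3 a Cirbp site, where 8.79% and 8.32% of all tested genes had one. The share of list genes with a site was thus no higher than that of genes at large. Numbers of sites per gene were not compared. Nfe2l1, a relative of Nfe2l2 that also binds AREs, held 6 Rbm3 sites with a top score of 658, and Atf4 held 5 Rbm3 sites with a top score of 487. The other genes with sites, named after their values were seen, were Trib3 (2 Rbm3 sites), Cul3 (2 Rbm3 and 2 Cirbp sites), Gsk3b (1 Cirbp site) and Tfrc (1 Cirbp site). Nfe2l1 had 133 and 213 FPKM in siRbm3, against 148 and 157 FPKM in mock 37 °C, which did not pass (log2 fold change 0.15, limma adjusted p = 0.773). For Nfe2l2, the member with a site, the values in siRbm3 overlapped those of mock 37 °C (0.24, SE 0.17, limma adjusted p = 0.518). None of the other 9 members had a site in its locus, Slc7a11 included.

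**Figure D4:**
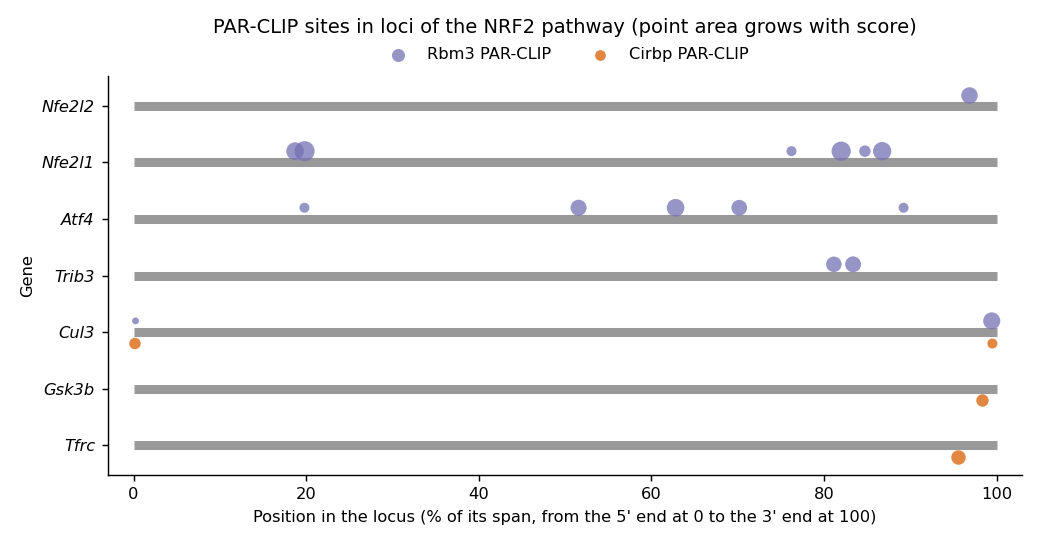
Position of PAR-CLIP sites in each locus that holds one (horizontal axis, percent of the mm9 span from the 5' end at 0 to the 3' end at 100); points above a bar are Rbm3 sites, points below it Cirbp sites, and the point area grows with the deposited score. The 1 Nfe2l2 site and the Gsk3b and Tfrc sites lie near the 3' end, and the sites of Nfe2l1 fall into a 5' and a 3' group.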

How the data were processed

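The authors deposited FPKM values in tables of the kind Cufflinks writes, 1 value for each of 28702 RefSeq transcripts in each of 8 libraries. Alignment was with TopHat 1.1.2 to mm9, per the submitters' processing notes; the Cufflinks version is not given in the sources used here. The coverage signal in the same deposited tables counts reads over each base, averaged along a transcript. PAR-CLIP sites were deposited with a score whose scale is not given in the sources used here.

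FPKM were summed per gene. For 10901 genes with a mean of at least 1 FPKM, log2(FPKM + 1) went into a limma 3.58.1 model (R 4.3.3) of 4 group means that left 4 residual degrees of freedom, with trended, robust moderation. Tests were two-sided, adjusted by Benjamini-Hochberg, at a threshold of 0.05. Values from 76 nt reads give the depth as coverage times 1000 over FPKM and read length. The fit was checked on simulated data. A PAR-CLIP site counted for a gene if it overlapped its locus by at least 1 nt. Members and lists were chosen with earlier results of these data known. Named list genes are the up to 4 with the smallest p that passed per list and comparison, and genes with a top PAR-CLIP score. The alternatives were median centring, a pseudocount of 0.1, no filter, the highest transcript only, removal of the trend of fold change with transcript length, a replicate block, and leaving out each library.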

Additional observations from a re-analysis of the deposited data

How the results depend on the processing

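Of 756 member values under alternatives, 665 kept their direction and their side of the threshold, 54 kept their direction but no longer passed, 14 newly passed and 23 changed sign. The count of all genes that passed at 32 °C was 3573 (1420 higher and 2153 lower), 1703 and 2116 with median centring and 1685 and 1682 with the length trend removed, and ran from 395 to 5071 with 1 library left out; the cause was not tested. In siCirbp the count was 370 (302 higher and 68 lower), 177 with median centring (116 and 61), 57 without filter, 217 with the highest transcript only and 132 with the length trend removed (83 and 49), and 4 to 1612 with 1 library left out. In siRbm3 it was 0, and 2 with the highest transcript only or the length trend removed, and 0 to 951 with 1 library left out. Between siCirbp and siRbm3 it was 4, 7 without filter, and 4 to 2132 with 1 library left out.

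The count of members that passed in siCirbp was 1, and 0 with median centring, no filter, the highest transcript only, the length trend removed or the replicate block. That of list genes was 1, and 0 without filter, with the length trend removed or with the block. With 1 library left out, members that passed numbered 1 to 4 at 32 °C, 0 to 3 in siCirbp, 1 to 7 for mock 32 °C against siCirbp and 1 to 7 for mock 32 °C against siRbm3. List genes numbered 0 to 31 at 32 °C, 0 to 13 in siCirbp, 0 to 3 in siRbm3 and 0 to 12 between the siRNA groups.

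Signs turned for values near 0. At 32 °C Gclm (0.02) was -0.12 with the length trend removed and -0.012 to 0.046 with 1 library left out. Srxn1 (-0.02) was 0.016 with median centring, 0.031 with the length trend removed and -0.089 to 0.053 with 1 library left out, and Gsr (-0.03) was 0.0039, 0.031 and -0.13 to 0.067. Glrx2 was -0.23 with the highest transcript only. With 1 library left out Hmox1 was -0.43 to 0.18 in siCirbp and -0.18 to 0.23 for mock 32 °C against siRbm3. Between siCirbp and siRbm3 these ranges were -0.11 to 0.35 for Nfe2l2, -0.20 to 0.0085 for Keap1, -0.044 to 0.21 for Gclm, -0.18 to 0.059 for Srxn1, -0.038 to 0.84 for Txnrd1, -0.023 to 0.53 for Gsr and -0.12 to 0.39 for Slc7a11, and Keap1 was 0.0084 with the highest transcript only.

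Replicate numbers are shared between groups, but residuals of libraries with the same number correlated at -0.153 to 0.0914, so no pairing was used. With the replicate block 3 genes passed in siCirbp, and at 32 °C the 4 members passed. Calls not passed under it were those of Glrx (adjusted p = 0.0800), Txnrd2 (0.0702) and Ddit3 (0.0511) at 32 °C, Gclm (0.0792) and Txn1 (0.0660) in siCirbp, and Gclc (0.0548) for mock 32 °C against siRbm3. A lone library left in a group was assumed to vary like the other groups. Precision is limited by 2 libraries per group and, for Nqo1, by 5 to 36 reads.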
